A study of Rattus norvegicus with 2 samples.

Results

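The 9 genes described here mark GABAergic interneurons, the inhibitory nerve cells of the cerebral cortex. They are Gad1, Gad2, Slc32a1, Dlx1, Dlx5, Sst, Npy, Calb1 and Calb2, and they were chosen by name and matched to the deposited tables through their RefSeq identifiers. All 9 had tags in both libraries, among the 9894 genes listed in either library. The libraries were prepared from neurons of the somatosensory cortex of E16 Sprague-Dawley rats, dissociated, electroporated with a plasmid and cultured for 48 h in medium with serum and B27. In 1 library the plasmid carried the Scramble control sequence, and in the other it carried an siRNA against PIWIL1, a PIWI family protein known from the germline. The PIWIL1 siRNA used for sequencing is not named in the sources used here, and no sorting of electroporated cells is described for these cultures, so each library may also hold RNA of cells without plasmid. Piwil1 itself had no value under its symbol in these tables, so the knockdown could not be checked here.

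GABAergic interneurons make the transmitter GABA from glutamate with the decarboxylases encoded by Gad1 and Gad2, and load it into synaptic vesicles with the transporter encoded by Slc32a1. In the rodent forebrain they are born in the ganglionic eminences, where homeobox factors of the Dlx family set their fate, and they then migrate tangentially into the cortex. Subtypes of these cells later make neuropeptides such as somatostatin and neuropeptide Y, or the calcium-binding proteins calbindin and calretinin.

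Abundance was measured as copies of 21-base tags, each of which starts at a CATG site of a transcript. The authors scaled these copies to 1000000 tags of a library, and this level (TPM) is not scaled to gene length. Copies on genes summed to 1947600 for Scramble and 1865913 for PIWIL1 RNAi, and tags with fewer than 2 copies were not in the tables. If no tag had been left out, a count of 0 would allow up to 3 copies, which is 0.886 TPM under Scramble and 0.908 TPM under PIWIL1 RNAi. Because tags with fewer than 2 copies were left out, the true bound is higher. Because a gene can have few or many CATG sites, and transcript lengths were not used, levels are compared between libraries and not between genes. Each condition had 1 library, so no difference had a replicate behind it. Each gene's copies were set against all other tag copies on genes with Fisher's exact test, two-sided. The p-values were adjusted by Benjamini and Hochberg (FDR) over all 9894 genes. This test compared these libraries and not the conditions. A gene was called when its FDR was 0.05 or less and its log2 ratio of TPM was at least 0.58 in either direction.

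The tags below, read from the deposited tables, are the most copied ones of each gene, shown because every level and ratio in this text is a count of such sequences. Capitals mark the CATG site at which the transcript was cut, and sites are numbered from the 3′ end of the gene.
Gad1 (NM_017007), site 3: CATGtgtactgtctggaaacg
Gad2 (NM_012563), site 9: CATGgcatctccgggctctgg
Slc32a1 (NM_031782), site 1: CATGccctagacatttcaacc
Dlx1 (NM_001100531), site 1: CATGattaaaaaataacaaaa
Dlx5 (NM_012943), site 2: CATGtgtaaagcttttttttt
Dlx5, site 1: CATGtaagttattgcatttca
Sst (NM_012659), site 1: CATGgcaccccgggaacgcaa
Npy (NM_012614), site 2: CATGtggtgatgggaaatgaa
Calb1 (NM_031984), site 1: CATGtgttccagatgacaatt
Calb2 (NM_053988), site 2: CATGtaaaggggtgaagggac
For Dlx5 the site 2 tag led under Scramble and the site 1 tag led under PIWIL1 RNAi.

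None of the 9 genes was called in either direction. Over all 9894 genes, 5.97% were called lower and 2.96% were called higher under PIWIL1 RNAi. Together the 9 genes had 379 copies under Scramble and 348 under PIWIL1 RNAi, or 112 and 105 TPM. The level was below that of the Scramble library for 7 genes and above it for 2, Gad1 and Dlx1, on the TPM scale. The median log2 ratio of the 9 genes was -0.50, against -0.085 for the 8899 genes listed in both libraries. A range of 10 to 203 copies in both libraries together, that of these 9, held 5100 genes. Those of them listed in both libraries had a median of -0.14. No test was made of the median of the 9 genes. At an unadjusted p of 0.05 or less, 2 of the 9 genes differed, Sst and Dlx1, and so did 26.5% of all genes tested. By ratio alone, 2 of the 9 (Dlx5 and Calb1) were past the threshold on the lower side and 0 on the higher side, against 22.5% and 12.9% of all genes. With edgeR's TMM scaling 459 genes in all were called lower and 398 higher, in place of 591 and 293, and none of the 9 was among them.

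**Figure D1:**
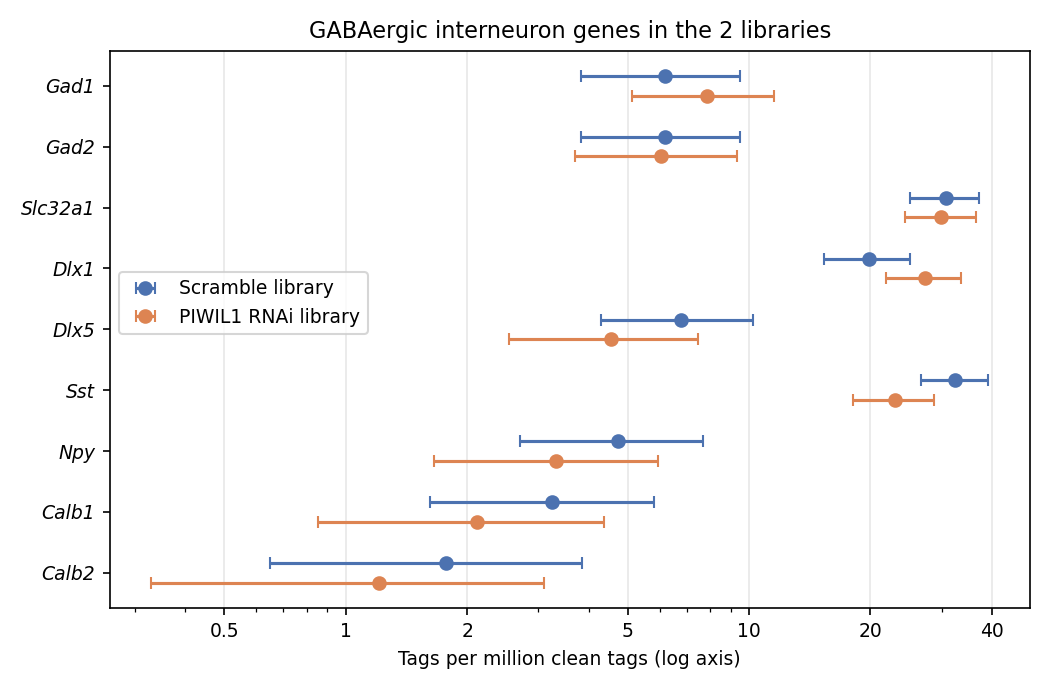
Level of each gene in TPM (log axis) in the Scramble library (blue) and the PIWIL1 RNAi library (orange), with exact 95% Poisson intervals that cover counting error only. The intervals of the 2 libraries overlap for all 9 genes, and they are narrowest for Slc32a1, Sst and Dlx1, which had the most copies.

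Among the genes of GABA synthesis and packaging, the transporter gene differed little between the libraries and the enzyme genes were measured with wide intervals. Slc32a1, the vesicular GABA transporter, had 104 copies under Scramble and 99 under PIWIL1 RNAi, or 30.71 and 29.97 TPM. The log2 ratio was -0.04 (95% exact interval -0.45 to 0.38), and its FDR was 1.0 with Fisher's exact test. This interval lay within the ratio threshold of 0.58 on both sides, which was the case for no other gene of the 9. Gad2, which encodes the isoform of glutamate decarboxylase associated with synaptic vesicles, had 21 and 20 copies, or 6.20 and 6.05 TPM, a log2 ratio of -0.04. Gad1, which encodes the isoform spread through the cell body, had 21 and 26 copies, or 6.20 and 7.87 TPM, a log2 ratio of 0.34. The intervals of these enzymes were wide, from -0.99 to 0.92 for Gad2 and from -0.54 to 1.25 for Gad1. With 21 copies in the Scramble library, either gene would have been called only at 6 copies or fewer or at 41 copies or more under PIWIL1 RNAi. A smaller difference was not detectable at this depth. The signs of the small ratios of Gad2 and Slc32a1 were not stable to scaling, since both lay slightly above 0 with edgeR's TMM factors (0.06 for each).

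Within Gad1 and Gad2 a larger share of the copies lay on 1 CATG site under PIWIL1 RNAi, a difference that did not pass the FDR in either gene. For Gad2 the tag at site 9 had 10 of 21 copies (47.6%) under Scramble and 18 of 20 (90.0%) under PIWIL1 RNAi. Its tags at sites 2 and 8 had 3 and 6 copies under Scramble and were not listed under PIWIL1 RNAi, while the tag at site 1 had 2 copies in both. For Gad1 the tag at site 3 had 8 of 21 copies (38.1%) and 18 of 26 (69.2%). Its tag at site 4 had 6 copies in the Scramble library only, and no tag of site 1 was listed for Gad1 in either library. A Fisher's exact test of the most copied tag against the other tags of the same gene, chosen after these values were seen and run for all 8296 genes with more than 1 tag, gave an unadjusted p of 0.0063 and an FDR of 0.0754 for Gad2. The same test gave an unadjusted p of 0.0428 and an FDR of 0.253 for Gad1. Neither passed an FDR of 0.05, which 7.05% of the genes did. The dominant Gad2 tag ends in GG, and the 689 tags of all genes with this end had a median log2 ratio of -0.55. The part of the tag end in these shares was not tested. For Slc32a1, all 7 tags were listed in both libraries, and the tag at site 1 held 72.1% of the copies under Scramble and 63.6% under PIWIL1 RNAi.

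**Figure D2:**
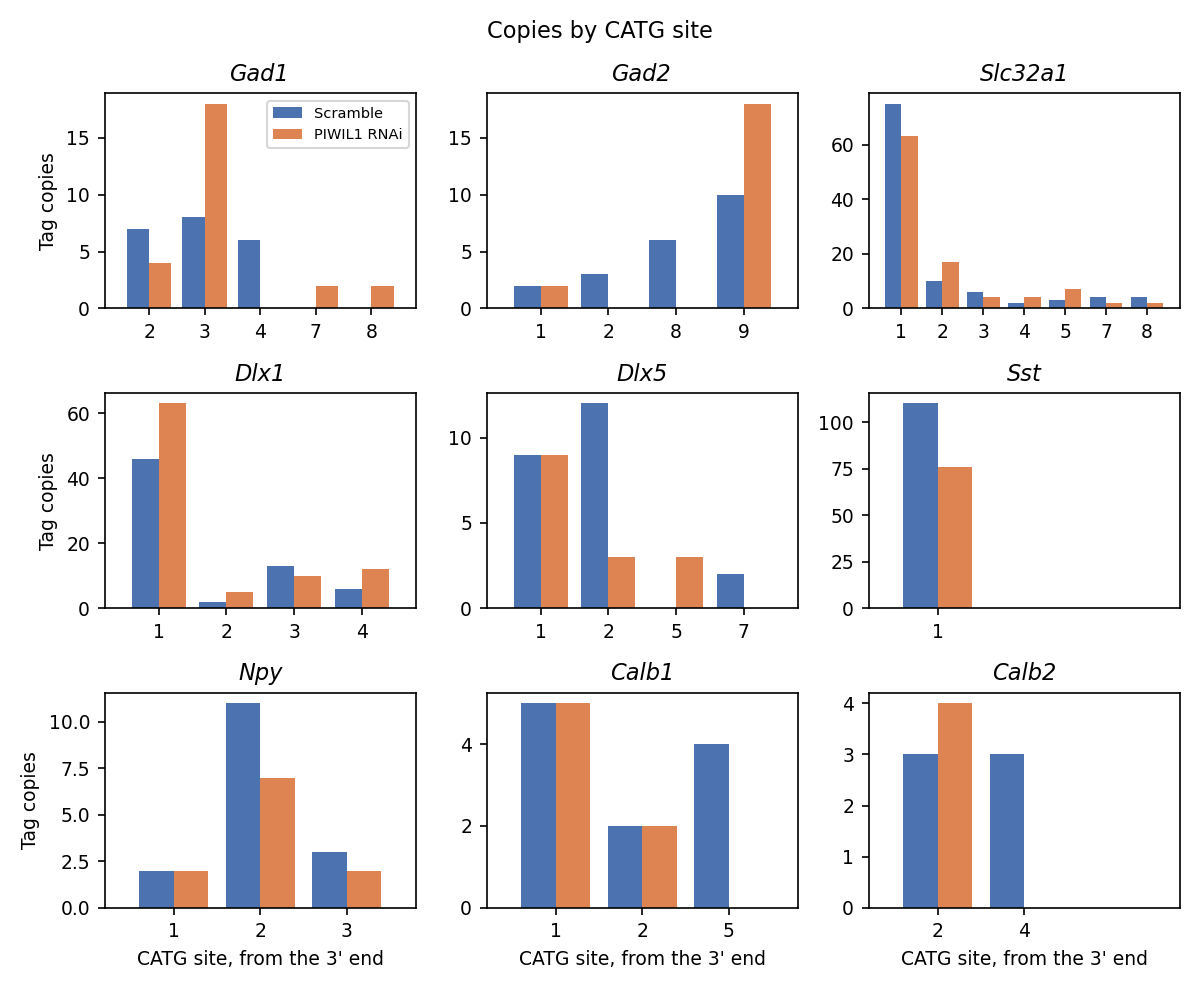
Tag copies of each gene by CATG site, numbered from the 3′ end of the gene, in the Scramble library (blue) and the PIWIL1 RNAi library (orange), each panel with its own axis starting at 0. Sst was read from 1 site only, Slc32a1 and Dlx1 mostly from site 1, and Gad2 mostly from site 9 under PIWIL1 RNAi.

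The transcription factors Dlx1 and Dlx5 had ratios on opposite sides of 1, and neither was called. Dlx1, a homeobox factor of interneuron progenitors and young interneurons, had 67 copies under Scramble and 90 under PIWIL1 RNAi, or 19.78 and 27.24 TPM. The log2 ratio was 0.46 (95% exact interval -0.01 to 0.94), with an unadjusted p of 0.0379 and an FDR of 0.154 (Fisher's exact test). A call would have needed 98 copies under PIWIL1 RNAi. Most of these copies came from the A-rich tag of site 1, which had 44 and 63 copies, 65.7% and 70.0% of the gene's total. That tag ends in a run of 4 A, and the 102 tags of all genes with this end had a median log2 ratio of 0.29. Dlx1 had a log2 ratio of 0.13 once its copies were corrected for the tag end. For each tag, the correction takes out the median of tags with the same end on other genes, relative to the median of all tags. Of its other tags, that of site 3 went from 13 to 10 copies and that of site 4 from 6 to 12. The sources used here do not say whether tags of the opposite strand were kept apart, and the Dlx1 locus of rodents also has an antisense transcript.

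A second tag was assigned to site 1 of Dlx1, with 2 copies under Scramble and none listed under PIWIL1 RNAi. It differs from the main tag by the substitution C17A, counted from 1 at the 5′ end of the tag, and the capital marks that base in each line.
Dlx1 main tag: catgattaaaaaataaCaaaa
Dlx1 second tag: catgattaaaaaataaAaaaa
Pairs of tags that differ by 1 base within a single site were found in 1872 genes (18.9%), and Dlx1 was the only one of the 9 genes with such a pair.

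Dlx5, another homeobox factor of the lineage, had 23 and 15 copies, or 6.79 and 4.54 TPM, a log2 ratio of -0.581 (95% exact interval -1.62 to 0.42, FDR 0.51, Fisher's exact test). The lower total came from the tag of site 2, which ends in a run of T and went from 12 to 3 copies. The tag of site 1 had 9 copies in each library, so that the log2 ratio of that tag alone was 0.04. A call would have needed 7 copies or fewer under PIWIL1 RNAi.

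The neuropeptide genes Sst and Npy were both at lower levels under PIWIL1 RNAi, without passing the FDR. Sst, which encodes somatostatin, had 110 copies under Scramble and 76 under PIWIL1 RNAi, or 32.48 and 23.01 TPM, all on the single tag of site 1. The level was 0.708 of the control, a log2 ratio of -0.50 (95% exact interval -0.94 to -0.06), with an unadjusted p of 0.0279 and an FDR of 0.125 (Fisher's exact test). This was the only interval of the 9 that did not hold 0, although that of Dlx1 held it only narrowly (-0.01 to 0.94). The intervals use the library totals behind TPM and the test uses copies on genes, so the 2 rest on different totals. Sst had 6 copies more under PIWIL1 RNAi than the 70 at which it would have been called. The Sst tag ends in AA, and the 993 tags of all genes with this end had a median log2 ratio of 0.16. With copy numbers corrected for the tag end, Sst had a log2 ratio of -0.73 and was called (FDR 0.0158, Fisher's exact test), while the other ways of counting or scaling the copies gave it an FDR between 0.115 and 0.226 and no call. Tags with this end varied around their median, with quartiles of -0.16 and 0.45, and the correction leaves that variation in place. Npy, which encodes neuropeptide Y, had 16 and 11 copies, or 4.72 and 3.33 TPM. Its log2 ratio of -0.50 was close to that of Sst, but the interval from -1.76 to 0.69 was far wider and the FDR was 0.709 (Fisher's exact test). Each of its 3 tags was listed in both libraries, and the most copied one, at site 2, had 11 and 7 copies.

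Calb1 and Calb2, which encode the calcium-binding proteins calbindin and calretinin, were read from few copies. Calb1 had 11 and 7 copies, or 3.25 and 2.12 TPM, a log2 ratio of -0.62 (95% exact interval -2.22 to 0.88, FDR 0.72, Fisher's exact test). Its tags at sites 1 and 2 had 5 and 2 copies in each library, and the whole difference lay on the tag of site 5, which had 4 copies in the Scramble library only. Calb2 had 6 and 4 copies, or 1.77 and 1.21 TPM, a log2 ratio of -0.55 (95% exact interval -2.82 to 1.53, FDR 0.906, Fisher's exact test). From 6 copies in the Scramble library, not even a count of 0 under PIWIL1 RNAi would have been called lower. A difference in either gene was therefore not detectable at this depth unless it was very large.

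**Figure D3:**
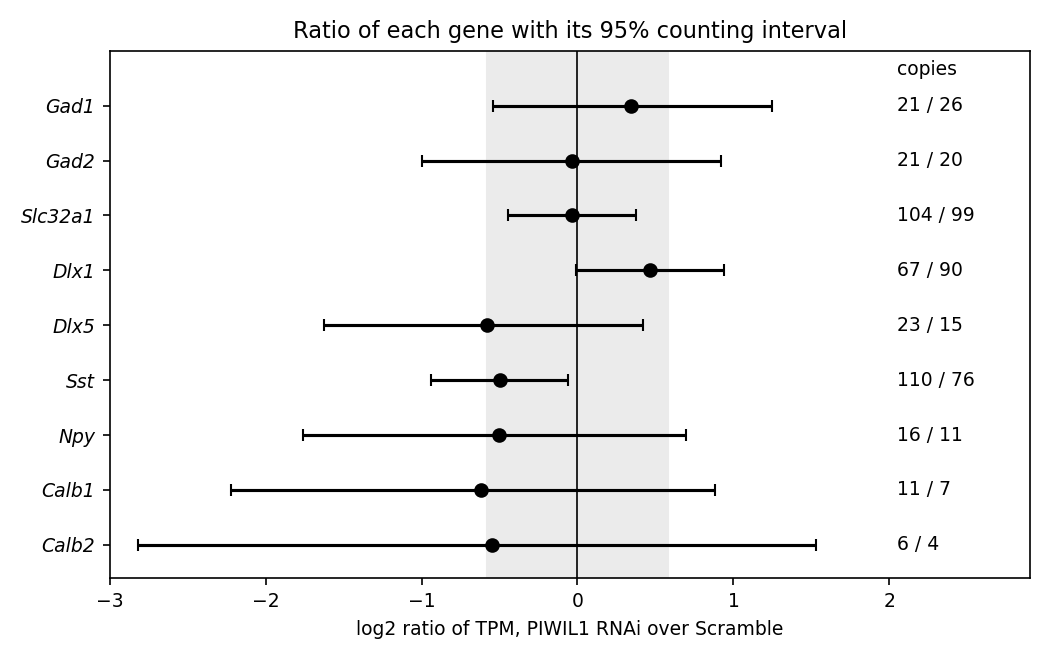
The log2 ratio of TPM of each gene (PIWIL1 RNAi over Scramble) with its exact 95% interval for counting error, the copies in the Scramble and PIWIL1 RNAi libraries at the right, and the range within the ratio threshold of 0.58 in grey. With the library totals behind TPM, only the interval of Sst (-0.94 to -0.06) leaves out 0, and that of Dlx1 (-0.01 to 0.94) holds it narrowly. Only that of Slc32a1 lies wholly inside the grey range.

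Across the 9 genes, 34 tags were listed, of which 24 were in both libraries, 7 in the Scramble library only and 3 under PIWIL1 RNAi only. No tag seen in 1 library had more than 6 copies there. Tags of site 1 held 65.7% of the copies of these genes under Scramble and 63.2% under PIWIL1 RNAi, against 62.7% and 64.6% of the copies of all genes. None of the 34 tags ended in 8 or more A, the tag ends with the highest ratios in these libraries. The deposited annotation grouped the genes of GABA synthesis and packaging, since Gad1, Gad2 and Slc32a1 were among the 10 genes with the component term for clathrin coated vesicle membrane, and none of those 10 was called. Gad1 and Gad2 were also the only 2 genes with the process term for succinate metabolism. Only Dlx1 and Dlx2 carried the term for differentiation of GABAergic interneurons of the cortex.

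**Figure D4:**
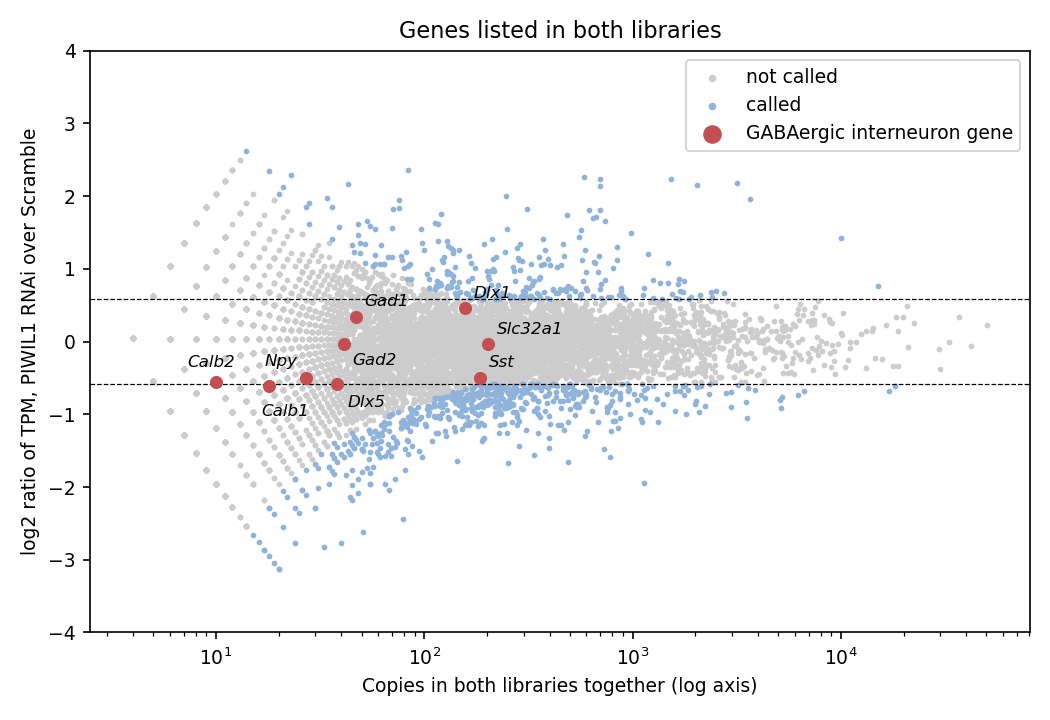
The log2 ratio of TPM (PIWIL1 RNAi over Scramble) against the copies in both libraries together (log axis) for the genes listed in both, with called genes in blue, the others in grey, the 9 GABAergic interneuron genes in red and dashed lines at the ratio threshold of 0.58. The red points lie among uncalled genes with between 10 and 203 copies, and the points of Sst (-0.50) and Dlx1 (0.46) lie inside the dashed lines.

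Other genes of the GABAergic lineage and synapse were taken from 4 lists with 58 genes in all, of which 40 had a value in either library and the rest, among them Pvalb, Vip, Nkx2-1, Sox6 and Erbb4, had no value analysed here. Among the 40, 2 genes were called lower (Lhx6 and Cck), 1 was called higher (Cxcl14) and 37 were not called, which is close to the 5.97% lower and 2.96% higher over all genes. The called genes are therefore given as single values and not as a feature of the lists. Over the 31 genes found in both, the median log2 ratio was -0.21, against -0.085 for all genes. The other 9 were listed in a single library with 2 to 6 copies, as for Gsx1 and Gsx2 (2 copies each, Scramble only) and Nrp2 (6 copies, PIWIL1 RNAi only).

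Among the lineage transcription factors, 1 of 16 genes with a value was called. Lhx6, a LIM homeobox factor of interneurons from the medial ganglionic eminence that include somatostatin cells, fell from 68 copies (20.08 TPM) to 35 copies (10.6 TPM). The log2 ratio was -0.92 (95% exact interval -1.55 to -0.31, FDR 0.0217, Fisher's exact test). Its main tag, which went from 49 to 22 copies, ends in GT, an end whose median log2 ratio over 634 tags was -0.67, and corrected for this, Lhx6 had a log2 ratio of -0.39 and was not called (FDR 0.549).
Lhx6, site 1: CATGttgtgctttgtaaatgt
The nuclear receptors Nr2f1 (97 and 82 copies, log2 ratio -0.21) and Nr2f2 (65 and 49 copies, -0.37), which mark cells of the caudal ganglionic eminence among other cells, were not called. Dlx2, the neighbour of Dlx1 in the Dlx family, had 9 and 13 copies, a log2 ratio of 0.57 with an interval from -0.77 to 1.97.

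Among other neuropeptides and subtype markers, 1 of 9 genes was called lower and 1 higher. Cck, which encodes cholecystokinin and is also made by projection neurons, fell from 129 copies (38.09 TPM) to 58 copies (17.56 TPM). The log2 ratio was -1.12 (95% exact interval -1.59 to -0.66, FDR 1.51e-05, Fisher's exact test). Both of its tags were lower, from 68 to 33 copies at site 1 and from 61 to 25 at site 2, and its log2 ratio was -0.78 once copies were corrected for the tag end. Cck was the only gene of these lists still called when edgeR's exact test was given a biological coefficient of variation of 0.1 (FDR 0.02), and at 0.2 it was not (FDR 0.75).
Cck, site 1: CATGggctggatggatttcgg
Cck, site 2: CATGtccgttcttaagaacct
Cxcl14, which encodes a chemokine found in some interneurons, rose from 61 copies (18.01 TPM) to 109 copies (33.0 TPM). The log2 ratio was 0.87 (95% exact interval 0.41 to 1.35, FDR 0.00104, Fisher's exact test), and it was 0.77 after correction for the tag end. Most of the rise was on the tag of site 1, from 26 to 67 copies, and its tag of site 8 had 7 and 6 copies.
Cxcl14, site 1: CATGttctttctaagatgaaa
Penk, which encodes the precursor of enkephalins, had 183 and 170 copies, a log2 ratio of -0.07.

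None of the 9 genes of GABA uptake, breakdown, chloride transport and the inhibitory synapse was called. Gphn, which encodes the scaffold protein gephyrin of inhibitory synapses, had 157 and 216 copies, a log2 ratio of 0.50 with an FDR of 0.00606 (Fisher's exact test), below the threshold on the ratio. Its main tag ends in 4 A like that of Dlx1 and had 138 and 179 copies, and with edgeR's TMM factors or DESeq2's size factors Gphn was called higher. Gabarap, a protein first found bound to GABA receptors, had 268 and 221 copies (log2 ratio -0.24), and the chloride importer gene Slc12a2 had 86 and 63 (-0.41). The Slc12a2 tag of site 1 had 53 and 51 copies, and that of site 2, which ends in TG, had 21 and 4. Over 866 tags with this end the median log2 ratio was -0.67, and the part of the tag end in the Slc12a2 ratio was not tested. None of the 6 genes of interneuron migration and surface proteins was called. The chemokine receptor genes of migrating interneurons were close to each other in ratio, Cxcr4 with 53 and 59 copies (log2 ratio 0.19) and Ackr3 with 47 and 49 (0.10), and Cntnap4 had 22 and 35 copies (0.71, FDR 0.22, Fisher's exact test).

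**Figure D5:**
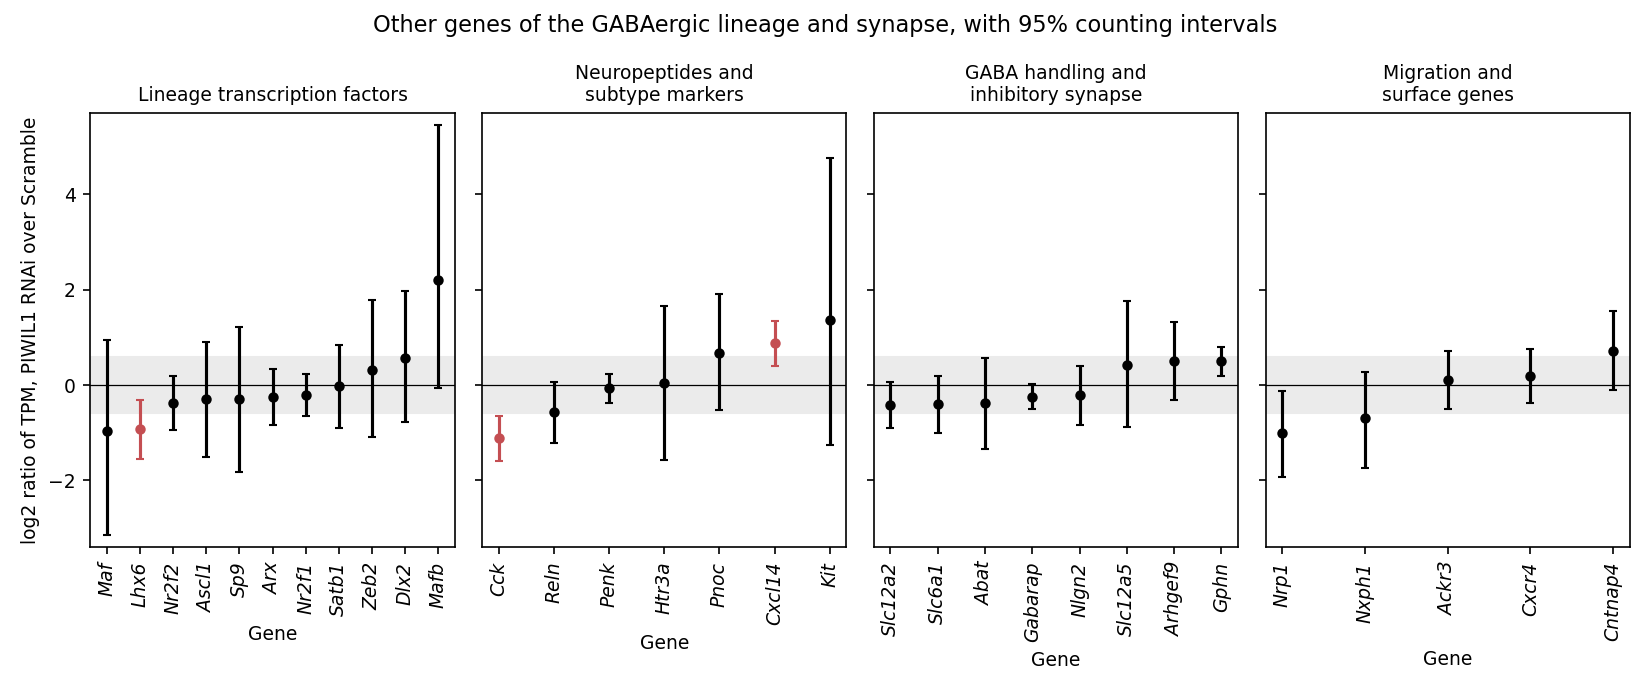
The log2 ratio of TPM (PIWIL1 RNAi over Scramble) of the 31 other genes listed in both libraries, in 4 lists, with exact 95% intervals for counting error, called genes in red and the range within the ratio threshold of 0.58 in grey. Lhx6 and Cck lie below the grey range and Cxcl14 above it.

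Markers of other cell types were also measured, and fewer cells of a type and less RNA per cell cannot be told apart in such bulk samples. For comparison with the calls below, 5.97% of all genes were called lower and 2.96% higher. The summed level of 8 pan-neuronal genes was 3390 TPM under Scramble and 2670 TPM under PIWIL1 RNAi, with Snap25 and Elavl3 called lower. Stmn2, which was not called, made up most of this sum, with 2209.71 and 1718.86 TPM. Of the 7 genes listed in both libraries, 5 had a lower level under PIWIL1 RNAi. Dcx (394.76 and 413.22 TPM) and Rbfox3 (2.36 and 2.42 TPM) did not, and Syt1 had 5 copies under PIWIL1 RNAi only. Of 9 genes of glutamatergic projection neurons with a value, Fezf2 and Bcl11b were called lower and Slc17a7 higher. The 9 genes summed to 798 and 705 TPM, and 5 of them had a lower level under PIWIL1 RNAi. The most copied of them went in opposite directions without a call, Neurod6 from 376.45 to 257.01 TPM and Neurod2 from 168.3 to 235.22 TPM. None of the 9 genes of radial glia and progenitors was called, and 8 of these had a lower level under PIWIL1 RNAi, although their sum was 1110 and 1380 TPM because of Vim (2674 and 3724 copies). The sums of the 4 astrocyte genes (113 and 124 TPM), the 5 genes of fibroblasts or meninges (546 and 523 TPM), the 6 oligodendrocyte genes (7.09 and 6.96 TPM), the 5 microglial genes (19.8 and 23.0 TPM) and the 3 erythroid genes (27.8 and 35.1 TPM) held no called gene. Of the 5 endothelial markers, Flt1 alone had a value, with 2 copies under PIWIL1 RNAi. The part of cell makeup in the ratios of the GABAergic interneuron genes was not tested.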

How the data were processed

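The counts are the tag copies per gene that the authors deposited without normalization, with the sequence and copies of every tag. The TPM values deposited by the authors are copies per 1000000 tags of the library (3386865 for Scramble and 3303360 for PIWIL1 RNAi, recovered here from counts and TPM, so that 57.5% and 56.5% of all tags are on listed genes). GEO's processing notes name rn4; the tag mapper and transcript set are not given in the sources used here. Symbols came from a RefSeq gene table by accession, and for 2 genes from the description (9339 of 9894 genes, 94.4%). No coordinates are printed, because that table is of another build.

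The genes and lists were chosen with earlier results of these data known. The genes named are the 9 interneuron genes and, of the other lists, those called and the 3 with most copies in each; a few others were named after their values were seen. Each gene was tested against all other tag copies on genes, across all genes. Ratios and their intervals use the library totals behind the deposited TPM, whereas the test uses the copies on genes as totals. Intervals are exact (Clopper-Pearson for ratios, Poisson for levels) at 95% and cover counting error only. They treat copies as independent molecules, which amplified copies are not, so they may be too narrow. Where the spread between cultures is unknown, p-values measure tag sampling alone. For the tag-end correction, each tag was put in a class by the run of 3 or more A at its end. Without such a run, its final 2 bases gave the class. Class medians were estimated in one part of the genes, on tags with at least 20 copies and with 0.5 added. Each class median, less the median of all those tags, was removed from the tags of the other part. Python 3.11.15, SciPy 1.17.1, R 4.3.3, edgeR 4.0.16 (TMM factors 1.02 and 0.977) and DESeq2 1.42.0 (size factors 1.04 and 0.959) were used.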

Additional observations from a re-analysis of the deposited data

How the results depend on the processing

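The 9 interneuron genes were compared under 14 other settings, of which 1 was chosen after seeing the data (the library totals behind the TPM as totals of the test). None was called higher under any of them. The number called lower stayed at 0 except with copies corrected for the tag end (1, Sst) and with the ratio threshold of 0.58 and no FDR (2, Dlx5 at -0.58 and Calb1 at -0.62). The direction changed for Gad2 with TMM factors (0.06), DESeq2's size factors (0.051), the most copied tag alone (0.88), the tag-end correction (0.25) and, for tags seen in a single library, 1 copy put back in the other (0.10). It changed for Slc32a1 with TMM factors (0.059) and DESeq2's size factors (0.05), and with the most copied tag alone for Dlx5 (0.036), Calb1 (0.036) and Calb2 (0.45). The signs of Gad1, Dlx1, Sst and Npy did not change under the 7 alternatives that recompute a ratio. Not all of these could change them. None of the 9 genes has a tag ending in 8 or more A, so leaving such tags out had no bearing. The single tag of Sst was listed in both libraries, so the most copied tag alone and 1 copy put back returned its ratio unchanged.

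Of the other GABAergic lineage genes, 2 lower and 1 higher in the main comparison, 1 was called lower and 0 higher with edgeR's exact test at an assumed biological coefficient of variation of 0.1 and with a log2 threshold of 1, and 0 in either direction at 0.2 and 0.4. The number called higher was 2 with TMM factors, with DESeq2's size factors and with the most copied tag alone. With the tag-end correction 1 was called lower, and with no FDR 10 were lower and 9 higher. Over all genes, 591 lower and 293 higher became 170 and 114 at a coefficient of 0.1, 2 and 15 at 0.2, 262 and 146 with a log2 threshold of 1, 2227 and 1281 with no FDR, and 377 and 182 with the tag-end correction. At 0.4 edgeR called none, with 114 genes at an unadjusted p under 0.05. The cause of these changes was not tested, other than thresholds that are stricter or looser by construction. No paired analysis was possible because each condition had 1 library, and for the same reason no library could be left out. With 3 of the 9 genes at 50 copies or more, depth limits what could be called for the other 6.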
